A study of Mus musculus with 3 samples.

Results

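The genes of ribosome biogenesis and of RNA polymerase I were followed in NIH3T3 cells, an immortalized line of mouse embryo fibroblasts from NIH/Swiss mice. The set holds 57 genes chosen by name, with earlier results of these data known. Of them, 56 are read by probe sets that name the gene alone, out of 18193 genes measured in this way. Mrto4 is named only by a probe set shared with its pseudogenes and is left out of all counts. Expression was measured on 3 Affymetrix GeneChip Mouse Genome arrays, 1 for each condition. The first condition was NIH3T3 cells stably overexpressing mtYAP, mouse YAP with serine 112 replaced by alanine, a residue through which the Hippo kinases hold YAP back. The second was NIH3T3 cells stably overexpressing wild-type YAP, and the third was control NIH3T3 cells. Both overexpressing lines were made by retroviral infection followed by selection with puromycin and kept as the surviving population, whereas the labels describe the control as untransduced. An empty-vector virus is also described in the methods, and which of these controls went onto the array is not stated there. A free-text label of the control refers to embryonic stem cells. All cells were grown in medium with 10% calf serum. The study presents the arrays within its work on growth at confluence, and the density at which these samples were harvested is not stated there. Yap1, read by 2 probe sets, stood at 7.89 in mtYAP and 8.06 in YAP, against 8.57 in control, so that the gene introduced read lower in both lines labelled as overexpressing it. Whether these probe sets can read the introduced sequence is not known here, the value does not check the labels, and mtYAP, YAP and control name the arrays by their labels throughout. Levels are log2 values from robust multiarray analysis (RMA), averaged over the probe sets of a gene, so that a difference of 1 is a 2-fold difference. With 1 array per condition no value has an error and no test can be made, and every difference compares single arrays.

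Ribosomes are made in the nucleolus. RNA polymerase I transcribes the ribosomal DNA into a long precursor, small nucleolar ribonucleoproteins (snoRNPs) modify it and guide its cleavage, and 2 sets of assembly factors turn its parts into the small and the large ribosomal subunit. Growing cells put a large share of their transcription into this pathway, and many of its protein-coding genes are textbook targets of the transcription factor MYC. The arrays read the mRNAs of these proteins and not the ribosomal RNA itself.

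In cells overexpressing mtYAP, the genes of this set stood above control nearly without exception. Since the set was chosen with earlier results of these data known, the counts and medians below may partly come from the choice. Of the 56 genes, 33 lay above a log2 difference of 1 and none below −1, where 3.77% of all genes measured lay above 1 and 4.06% below −1. All but Gnl2 lay above 0, as 51.8% of all genes did. The median difference was 1.09, which is 2.13-fold, against 0.02 over all genes. In cells overexpressing wild-type YAP the same genes lay closer to control, with a median of 0.58 (1.49-fold) against −0.003 over all genes. There 8 of the 56 lay above 1, where 1.36% of all genes did, and 22 lay above 0.65, a limit passed in YAP by 3.74% of all genes, close to the share past 1 in mtYAP. None lay below −1, where 1.26% of all genes did, and 55 lay above 0, where 48.0% did. Between the overexpressing lines, the median of mtYAP minus YAP was 0.46, and 26 genes lay above 0.5 in that difference, where 5.45% of all genes did. These comparisons share arrays with one another. The limits cut through a dense range of values, since 13 genes lay between 0.9 and 1.1 in mtYAP, 6 of them above 1 and 7 at or below it.

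By the mean over probe sets, 51 of the 56 genes read highest in mtYAP, next in YAP and lowest in control, as did 4671 of all 18193 genes. By that mean Polr1c, Ubtf, Ncl and Ddx10 read highest in YAP, and Gnl2 read highest in control. With the probe set of the highest mean level taken for each gene, 48 genes held the order, as did 4612 of all 18193 genes. Restricting the genes to those that reach a level of 8 on at least 1 array, well above the background of the arrays, left 30 of the set, with 24 above 1 in mtYAP and 6 in YAP. Among all 2746 genes at that level the shares were 10.1% in mtYAP and 3.93% in YAP. A gene can reach that level through the mtYAP array alone, as Rrp9 did at 8.07, against 7.70 in YAP and 6.92 in control. The limit thus lets in genes because they read high in mtYAP, and the count of 24 is no separate check.

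**Figure D1:**
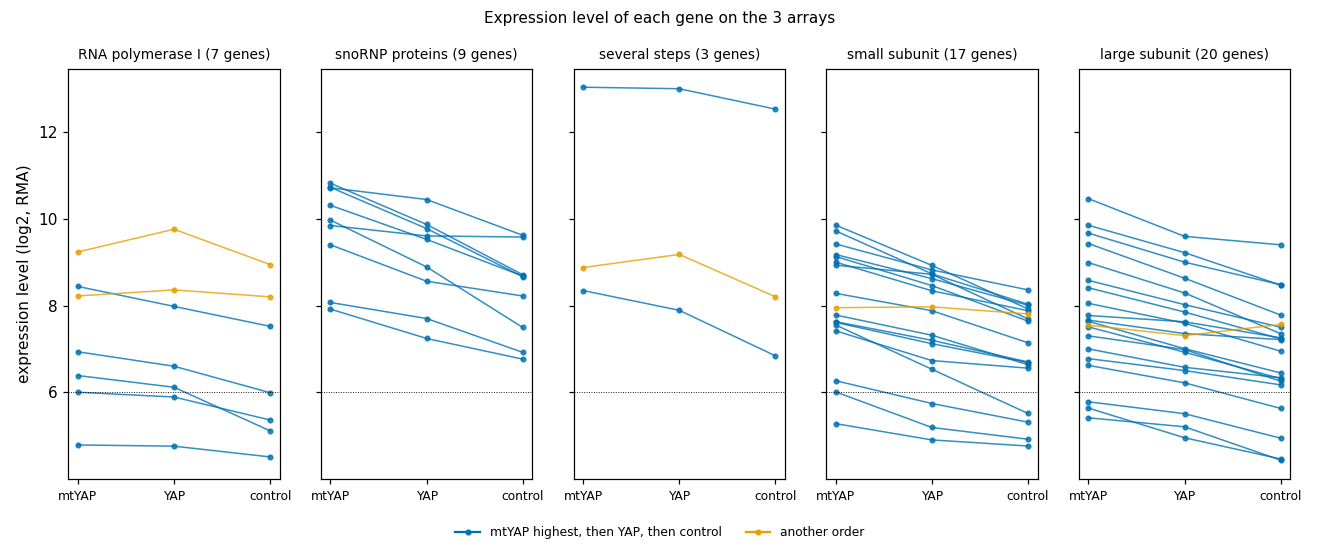
Expression level (vertical axis, log2 RMA value) of each of the 56 genes on the mtYAP, YAP and control arrays (horizontal axis), in 5 panels by step of ribosome biogenesis, with a dotted line at a level of 6. Blue lines are the 51 genes that read highest in mtYAP and lowest in control, an order held by 4671 of all 18193 genes. Orange lines are the 5 genes with another order, and heights of different genes are not comparable.

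**Figure D2:**
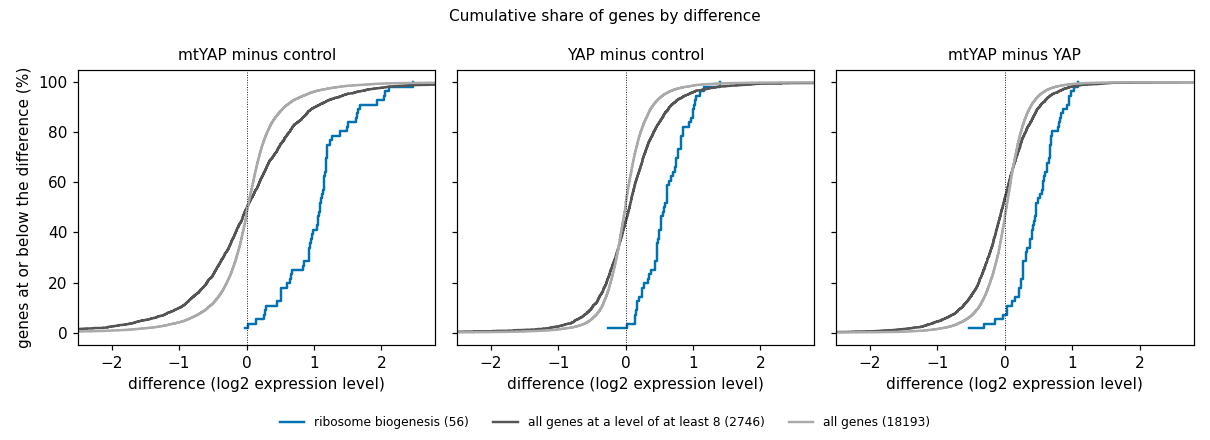
Cumulative share of genes (vertical axis, %) by log2 difference (horizontal axis) for mtYAP minus control, YAP minus control and mtYAP minus YAP. Except at its upper end, the curve of the 56 ribosome biogenesis genes (blue) lies to the right of that of all 18193 genes (light grey) and of the 2746 genes at a level of at least 8 (dark grey), with medians of 1.09, 0.58 and 0.46. It ends at 2.48, 1.40 and 1.08, whereas all genes reach 6.84, 5.73 and 4.06, past the axis.

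Since most of the genes stood above control together, their promoters were searched for the E-box CACGTG, the sequence bound by MYC with its partner MAX, which reads the same on both strands. RefSeq promoters of build GRCm38.p6, taken from 250 bases before to 50 bases after the start site, were matched by symbol for 49 of the 57 genes with 58 entries, and none was used for Bop1, Fbl, Gnl2, Mak16, Npm1, Rrp12, Rrs1 and Tcof1. The E-box was present in the promoters of 9 of these 49 genes (18.4%), as it was in those of 10.5% of the measured protein-coding genes, of 15% of those at a level of at least 8 and in 7.15% of all promoter entries. The letters GGAATG, the core of the motif bound by TEAD factors, or its reverse complement CATTCC occurred in 4 of the 49 genes (8.16%) and in 15.2% of the measured protein-coding genes. Those 4 were Rrp15, Rrn3, Polr1b and Ubtf. The 10 E-boxes of the 9 genes are printed with up to 12 bases on each side, 5′ to 3′ on the strand of the gene, and the E-box is in capitals. They come from the C57BL/6J reference and not from NIH3T3 cells.
Wdr43 at chr17:71616220-71616249 (+): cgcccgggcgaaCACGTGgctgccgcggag
Ltv1 at chr10:13193092-13193121 (−): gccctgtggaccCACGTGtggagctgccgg
Grwd1 at chr7:45830740-45830767 (−): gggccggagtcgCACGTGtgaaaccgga
Tsr1 at chr11:74898092-74898121 (+): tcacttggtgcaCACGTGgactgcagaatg
Utp20 at chr10:88826765-88826789 (−): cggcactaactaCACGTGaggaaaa
Nop2 at chr6:125131811-125131840 (+): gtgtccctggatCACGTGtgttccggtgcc
Utp18 at chr11:93885769-93885798 (−): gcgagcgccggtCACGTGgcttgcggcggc
Rrn3 at chr16:13780472-13780501 (+): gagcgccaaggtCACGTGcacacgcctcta
Rrn3 at chr16:13780639-13780668 (+): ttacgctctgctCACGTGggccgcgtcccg
Pes1 at chr11:3963965-3963994 (+): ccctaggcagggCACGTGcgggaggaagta

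Of the 10 E-boxes, 6 began after the start site, at 3 bases in Pes1, 18 in Wdr43, 25 in Tsr1, 29 in Ltv1, 35 in Grwd1 and 38 in Utp20. The other 4 began 20 bases before it in Utp18, 60 bases in Nop2 and 48 and 215 bases in Rrn3. The median difference in mtYAP was 1.12 over the 9 genes with an E-box and 1.103 over the 39 measured genes whose promoters held none, and in YAP it was 0.52 and 0.62. Dkc1, Nop58 and Nop56, the furthest from control in mtYAP by the mean of their probe sets, were among those with no match in this window. A match is only a match of letters, and no binding was measured here. Among the polymerase I genes of the set, Polr1e stood furthest from control in mtYAP. The 250 bases before its start site are given to show a promoter with neither motif, at chr4:45018359-45018608 on the plus strand.
Polr1e: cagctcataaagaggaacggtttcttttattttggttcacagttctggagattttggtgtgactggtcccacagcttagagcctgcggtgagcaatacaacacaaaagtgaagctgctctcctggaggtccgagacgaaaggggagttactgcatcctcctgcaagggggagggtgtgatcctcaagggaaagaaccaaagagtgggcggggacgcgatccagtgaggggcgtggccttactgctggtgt

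The genes of RNA polymerase I itself had a lower median in mtYAP than the snoRNP genes and the small and large subunit factors. By the mean over probe sets the 7 genes had a median difference of 0.64 in mtYAP cells and of 0.53 in YAP cells, and 1 of them lay above 1 in each line. In mtYAP minus YAP their median was 0.11 and none lay above 0.5, and over the 3 genes that reach a level of 8 that median was −0.14. With the probe set of the highest mean level, the polymerase I medians were 0.80 in mtYAP and 0.53 in YAP. Polr1e and Tcof1 then lay above 1 in mtYAP, and no gene of the step did in YAP. Polr1e, a subunit that assists elongation (PAF53), read 6.385 in mtYAP and 6.115 in YAP, against 5.11 in control. By the mean it was the gene above 1, at 1.275 and 1.005. Tcof1, treacle, a nucleolar scaffold of polymerase I transcription, read 6.93 in mtYAP and 6.60 in YAP, against 5.99 in control. Rrn3 (TIF-IA), which makes the polymerase competent to start, read 8.44 in mtYAP and 7.98 in YAP, against 7.52 in control. These 3 genes ran in the order mtYAP, YAP, control, with differences from control of 0.94 and 0.61 for Tcof1 and of 0.92 and 0.46 for Rrn3.

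Of the catalytic subunits, Polr1b lay nearer to control than these 3 genes in mtYAP but not in YAP, where it stood at 0.53. Polr1b read 6.0 in mtYAP and 5.89 in YAP, against 5.36 in control. Polr1a, the largest subunit, read 4.78 in mtYAP and 4.76 in YAP, against 4.51 in control, as the mean of 5 probe sets, of which a pair lay near the bottom of the scale. In the brightest of them the difference was 0.80 in mtYAP and 0.46 in YAP. Polr1c, a subunit shared with RNA polymerase III, went another way, at 9.235 in mtYAP and 9.76 in YAP, against 8.945 in control, and both of its probe sets read higher in YAP than in mtYAP. Ubtf, the DNA-binding factor UBF that keeps ribosomal genes open, stayed at 8.22 in mtYAP and 8.36 in YAP, against 8.20 in control. In mtYAP the polymerase I genes of the set thus spanned 1.275 for Polr1e to 0.02 for Ubtf.

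The proteins of the snoRNPs included the 3 largest differences of the set in mtYAP, by the mean over probe sets. Of these 9 genes, 8 passed 1 in mtYAP cells and 3 in YAP cells. Their median difference was 1.18 in mtYAP and 0.825 in YAP, and 6 lay above 0.5 in mtYAP minus YAP. The box C/D snoRNPs carry the methyltransferase fibrillarin (Fbl) on the scaffold proteins Nop56 and Nop58. Nop58 read 10.82 in mtYAP and 9.87 in YAP, against 8.71 in control (4.32-fold and 2.23-fold). Nop56 read 10.725 in mtYAP and 9.775 in YAP, against 8.665 in control (4.17-fold and 2.16-fold). Fbl read 10.715 in mtYAP and 10.445 in YAP, against 9.62 in control (2.14-fold and 1.77-fold). The scaffold pair thus stood at nearly the same distance from control, and the enzyme closer to it in both lines.

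In the box H/ACA snoRNPs, which make pseudouridine, the partners of one complex differed widely. Dkc1, the pseudouridine synthase dyskerin, read 9.97 in mtYAP and 8.89 in YAP, against 7.49 in control, the largest mean difference of the 56 genes in both lines (5.57-fold and 2.63-fold), though not by the brightest probe set, where Ebna1bp2 in mtYAP and Noc2l and Ebna1bp2 in YAP stood further from control. Its 3 probe sets gave 2.25, 2.28 and 2.90 in mtYAP. Nhp2 read 10.31 in mtYAP and 9.525 in YAP, against 8.68 in control. Gar1 read 9.40 in mtYAP and 8.56 in YAP, against 8.22 in control. Nhp2 therefore lay 1.63 and 0.845 from control and Gar1 1.18 and 0.34. Nop10, the smallest core protein, read 9.845 in mtYAP and 9.605 in YAP, against 9.58 in control, a difference of 0.265 in mtYAP and 0.025 in YAP, and its 2 probe sets gave 0.26 and 0.27 in mtYAP. It was the only snoRNP gene of the set under 1 in mtYAP.

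The remaining snoRNP genes lay between these. Rrp9, a protein specific to the snoRNP that guides early cleavage, read 8.07 in mtYAP and 7.70 in YAP, against 6.92 in control. Nolc1 (Nopp140), a chaperone of snoRNPs, read 7.92 in mtYAP and 7.24 in YAP, against 6.76 in control. Both stood at 1.15 in mtYAP, while in YAP Rrp9 stood at 0.78 and Nolc1 at 0.48.

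**Figure D3:**
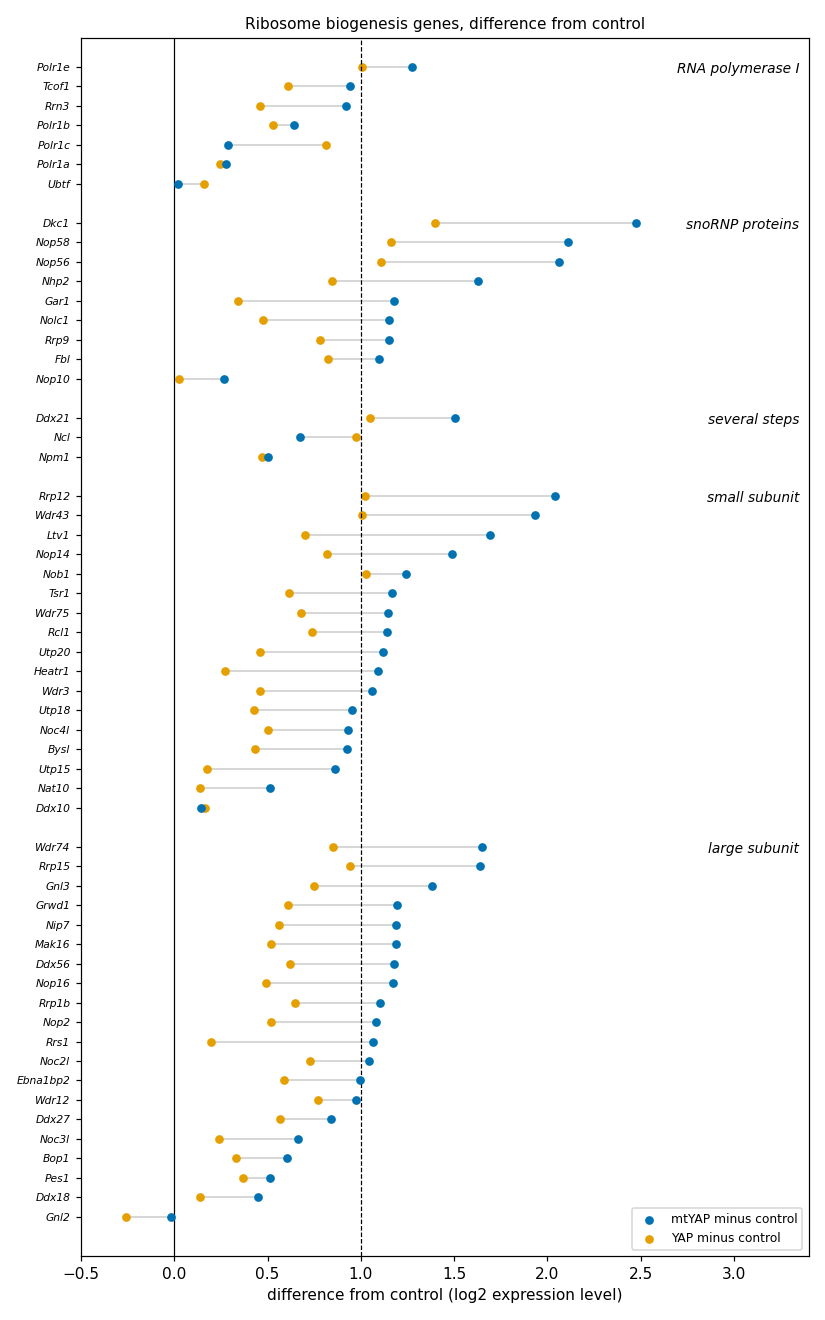
Each of the 56 genes (rows, grouped by step and ordered by the mtYAP value) with its log2 difference from control (horizontal axis) for mtYAP (blue) and YAP (orange), with a dashed line at 1 and a grey line joining the points of a gene. Dkc1 lies furthest right at 2.48 in mtYAP and 1.40 in YAP, the blue point lies right of the orange one for all but Polr1c, Ubtf, Ncl and Ddx10, and Gnl2 is the gene left of 0.

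A group of 3 abundant nucleolar proteins acts at several steps. Ddx21, an RNA helicase of ribosomal RNA transcription and processing, read 8.345 in mtYAP and 7.89 in YAP, against 6.84 in control, differences of 1.505 and 1.05. Ncl, nucleolin, read 8.88 in mtYAP and 9.18 in YAP, against 8.20 in control, differences of 0.67 and 0.98. Npm1, the chaperone nucleophosmin, read 13.04 in mtYAP and 13.00 in YAP, against 12.53 in control, differences of 0.505 and 0.47. Ncl was higher in YAP than in mtYAP by the mean, and Npm1 differed by 0.035 between these lines. In mtYAP minus YAP the mean of Ncl was −0.30. Its brightest pair of probe sets stood there at −0.02 each, and its other probe sets further below 0. For Ncl the 5 probe sets spread over 1.32 in mtYAP, and 1 of them was at a level of 3.23 or less on each array. Without that probe set the other 4 lay between 0.53 and 1.12 in mtYAP and between 0.85 and 1.55 in YAP.

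The factors that process the small subunit stood about as far from control as those of the large one. Of 17 small subunit genes, 11 passed 1 in mtYAP cells and 3 in YAP cells. The median was 1.12 for mtYAP and 0.50 for YAP, and 10 lay above 0.5 in mtYAP minus YAP. Rrp12, which takes part in the export of ribosomal subunits, read 7.55 in mtYAP and 6.53 in YAP, against 5.51 in control (4.11-fold and 2.03-fold). Wdr43, part of the subcomplex that binds the precursor first and links its transcription to its processing, read 9.855 in mtYAP and 8.925 in YAP, against 7.92 in control (3.82-fold and 2.01-fold). Ltv1, a late factor of small subunit maturation, read 9.72 in mtYAP and 8.73 in YAP, against 8.03 in control (3.23-fold and 1.62-fold). For these 3 genes the step between mtYAP and YAP was close to 1, at 1.02, 0.93 and 0.99. Nop14, a component of the processome, read 9.13 in mtYAP and 8.46 in YAP, against 7.64 in control. Nob1, the endonuclease that makes the mature end of the small subunit RNA, read 8.93 in mtYAP and 8.72 in YAP, against 7.69 in control, so that the overexpressing lines differed by 0.21 and both lay above 1 from control.

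Among the other partners of Wdr43 in that early subcomplex, Wdr75 stood at 1.145 in mtYAP and 0.68 in YAP, Heatr1 at 1.09 and 0.27 and Utp15 at 0.86 and 0.175. The medians of the 4 were 1.12 and 0.475. Tsr1, a GTPase-like factor of late maturation, Rcl1, known in yeast for an early cleavage, Utp20 and Wdr3 lay between 1.06 and 1.17 in mtYAP and between 0.46 and 0.74 in YAP. Utp18, Noc4l and Bysl lay just under the limit in mtYAP, at 0.955, 0.93 and 0.925, and at 0.43, 0.50 and 0.435 in YAP. The smallest differences of this step were those of Utp15, Nat10 and Ddx10. Utp15 read 7.415 in mtYAP and 6.73 in YAP, against 6.555 in control. Nat10, the acetyltransferase of the small subunit RNA, read 5.275 in mtYAP and 4.90 in YAP, against 4.76 in control, below a level of 6 throughout. Ddx10, a helicase, read 7.95 in mtYAP and 7.97 in YAP, against 7.805 in control, and was the member of this step that did not order by line.

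Of the 20 large subunit genes measured, 12 passed 1 in mtYAP cells and none did so in YAP cells, by the mean over probe sets. By the brightest probe set of each gene, 15 passed in mtYAP and 3 in YAP, which were Noc2l, Ebna1bp2 and Wdr12. The median was 1.07 for mtYAP and 0.56 for YAP, and 10 lay above 0.5 in mtYAP minus YAP. In YAP, 5 of them lay above 0.65. Wdr74 read 9.43 in mtYAP and 8.63 in YAP, against 7.78 in control (3.14-fold and 1.80-fold). Rrp15 read 8.99 in mtYAP and 8.29 in YAP, against 7.35 in control (3.12-fold and 1.92-fold). Gnl3, the nucleolar GTPase nucleostemin, read 9.85 in mtYAP and 9.22 in YAP, against 8.47 in control (2.60-fold and 1.68-fold). These 3 genes led the step in mtYAP, and each is read by 1 probe set. Grwd1 read 7.51 in mtYAP and 6.92 in YAP, against 6.31 in control. Nip7 read 7.635 in mtYAP and 7.005 in YAP, against 6.445 in control, and Mak16 read 9.67 in mtYAP and 9.0 in YAP, against 8.48 in control. Grwd1, Nip7 and Mak16 thus shared a difference of 1.19 in mtYAP and lay between 0.52 and 0.61 in YAP.

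Ddx56, Nop16, Rrp1b, Nop2, a methyltransferase of the large subunit RNA, Rrs1 and Noc2l lay between 1.045 and 1.18 in mtYAP and between 0.195 and 0.73 in YAP. Rrs1, which brings the 5S ribonucleoprotein to the precursor in yeast, had the widest step of this group between the lines, at 10.465 in mtYAP and 9.595 in YAP, against 9.40 in control. In the PeBoW complex, Pes1 and Bop1 stood below the median of the step in both lines, at 0.515 and 0.605 in mtYAP and at 0.37 and 0.33 in YAP. Their partner Wdr12 stood at 0.98 in mtYAP and 0.77 in YAP, above the median of the step in YAP. Ebna1bp2, Ddx27 and Noc3l stood at 0.99, 0.84 and 0.665 in mtYAP and at 0.59, 0.565 and 0.24 in YAP. The lowest 3 of the step in mtYAP were Pes1, Ddx18 and Gnl2. Pes1 read 7.77 in mtYAP and 7.625 in YAP, against 7.255 in control. Ddx18, a helicase, read 7.66 in mtYAP and 7.35 in YAP, against 7.21 in control. Gnl2, a GTPase related to nucleostemin, read 7.55 in mtYAP and 7.31 in YAP, against 7.56 in control. Gnl2 was the gene of the 56 that lay below control, by −0.02 in mtYAP and −0.26 in YAP, and none of its 3 probe sets lay above 0.10 in mtYAP.

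Several genes are read by probe sets of unequal brightness, and the mean over them sets some of the values above. The 56 genes have 112 probe sets, 18 genes with 1 and 38 with several. Of the 95 probe sets that reach a level of 6 on at least 1 array, 54 passed 1 in mtYAP and 17 in YAP. Of the same 95, 2 lay below 0 in mtYAP and 5 in YAP. Of the 17 below that level, 4 passed 1 in mtYAP but none in YAP. A probe set can reach a level of 6 through the mtYAP array alone. A probe set of Polr1e did so at 6.26, against 5.93 in YAP and 4.87 in control. The split by level is thus no separate check. Among all probe sets that name 1 gene, the shares past 1 at a level of at least 6 were 8.7% in mtYAP and 3.15% in YAP, under that level 1.6% and 0.626%, and over all levels 4.61% and 1.69%. The probe sets of 8 genes differed by more than 1 from each other in mtYAP, those of Ebna1bp2, Wdr12, Ddx27, Heatr1, Ncl, Noc2l, Polr1a and Ddx21. For most of these the brightest probe set, that with the highest mean over the arrays, gave a larger difference than the mean. In it Ebna1bp2 stood at 2.29 in mtYAP and 1.37 in YAP, where its mean gave 0.99 and 0.59. There Heatr1 stood at 1.77 in mtYAP and 1.1 in YAP, Ddx27 at 1.6 and 0.91, Noc2l at 1.68 and 1.45, Wdr12 at 1.56 and 1.07 and Polr1a at 0.80 and 0.46. With this probe set taken for every gene, 37 of the 56 genes passed 1 in mtYAP and 10 in YAP, as did 4.84% and 1.81% of all genes.

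**Figure D4:**
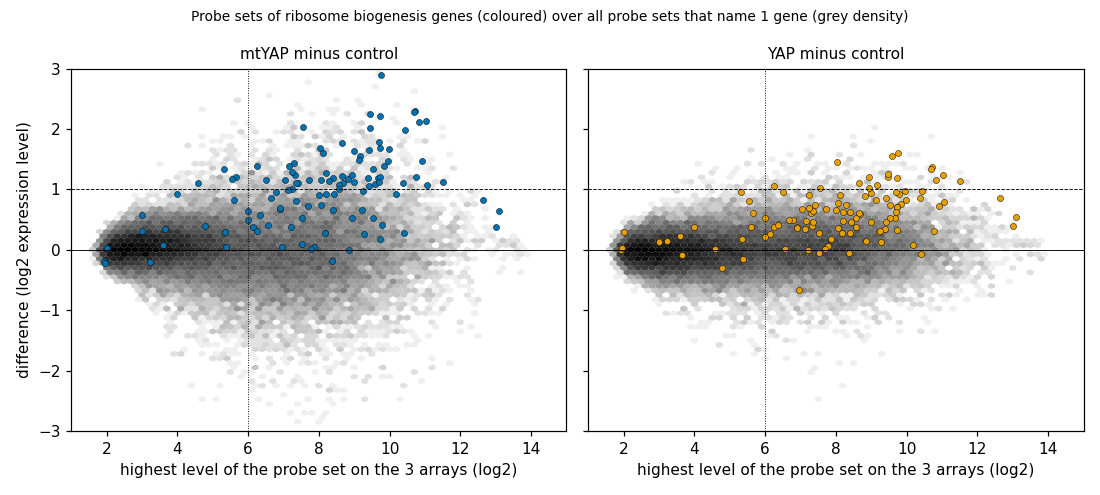
Log2 difference from control (vertical axis) of mtYAP (left, blue) and YAP (right, orange) for the 112 probe sets of the 56 genes, by the highest level of the probe set on the 3 arrays (horizontal axis, log2), over the density of all 34945 probe sets that name 1 gene (grey, darker where denser, differences beyond 3 not drawn). Of the 95 probe sets right of the dotted line at a level of 6, 93 lie above 0 in mtYAP and 90 in YAP, as do 14 and 13 of the 17 left of it. A probe set can lie right of the line through its level in mtYAP alone.

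The rest of the pathway, given by 107 further genes named from general knowledge, of which 105 were measured, lay mostly above control too. Both lists were chosen with earlier results of these data known, so that the distance between their medians may come from the choice. Of the 105, 16 (15.2%) passed 1 in mtYAP and 2 (1.90%) in YAP, where 3.77% and 1.36% of all genes did, so that the share in YAP lay near that of all genes, and none lay below −1. Their median difference was 0.59 for mtYAP and 0.32 for YAP. Of 34 other small subunit factors 6 lay above 1 in mtYAP, with a median of 0.645, led by Utp4, a partner of Wdr43, at 1.45 and Nol10 at 1.41, while Riok3, a kinase, stood at 0.18 and Ddx47 at −0.003. Of 37 other large subunit factors 4 lay above 1, with a median of 0.54, led by Gtpbp4, a GTPase, at 1.6 and Ftsj3, a methyltransferase, at 1.32, with Mdn1 at 0.11 and Rpf1 at −0.16 at the other end. Of 10 further snoRNP proteins and assembly factors 3 lay above 1, with a median of 0.71, and Znhit6, an assembly factor of box C/D snoRNPs, stood at 1.84 and Ruvbl2, an ATPase, at 1.58, against 0.09 for Shq1 and 0.005 for Pih1d1. The 13 genes of the RNA exosome, which trims precursor RNA, had a median of 0.65 with 2 above 1, Dis3, a ribonuclease, at 1.66 and Exosc5 at 1.08, while Mtrex stood at 0.30 and C1d at 0.03.

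Genes of polymerase I outside the set lay on both sides of control. Of 11 such genes 1 passed 1 in mtYAP, none did in YAP, and the median was 0.23 for mtYAP and 0.20 for YAP. Twistnb, the subunit also called Polr1f, read 8.31 in mtYAP and 7.44 in YAP, against 6.96 in control, a difference of 1.35 in mtYAP, and Taf1d, a factor of promoter selection, stood at 0.90. Of the others, named here after their values were seen, Taf1b stood at 0.71 and Cd3eap, the subunit also called Polr1g, at 0.64. Taf1c stood at −0.25 and the termination factor Ttf1 at −0.26. Over 11 genes of RNA polymerase II, a list that includes subunits shared by the polymerases, the medians were 0.16 in mtYAP and 0.10 in YAP. In mtYAP, Polr2c stood at 1.02 and Polr2h, a subunit shared by the 3 polymerases, at 1.01. Polr2b stood there at −0.24 and Polr2a, the largest subunit, at −0.45. Over 13 genes of RNA polymerase III the medians were 0.17 in mtYAP and 0.15 in YAP. In mtYAP, Polr3g stood at 1.11 and Polr3e at 0.86, and Brf1 at −0.01 and Polr3f at −0.26.

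**Figure D5:**
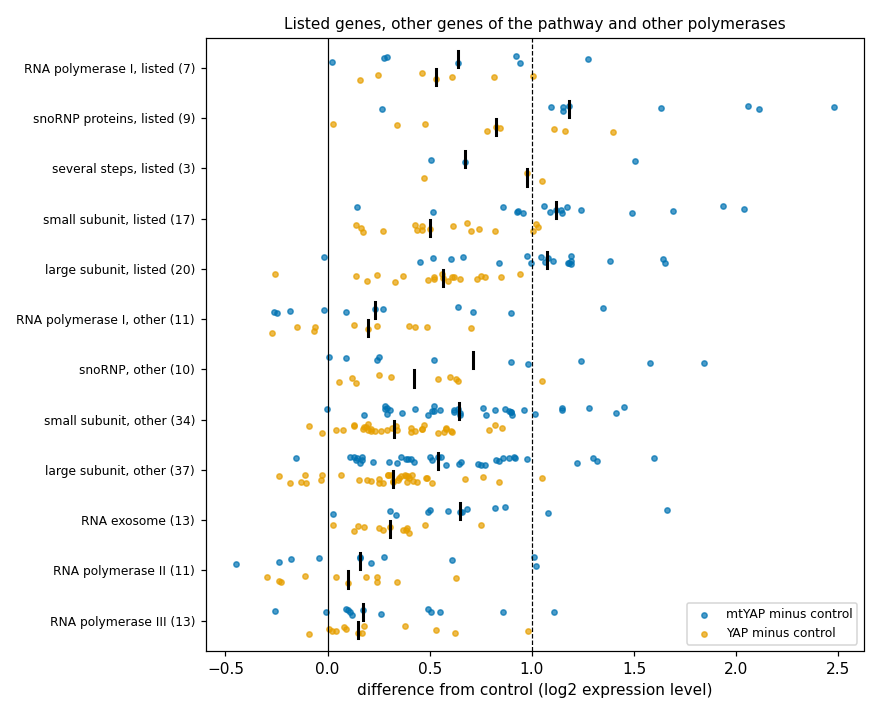
Points give the log2 difference from control (horizontal axis) of single genes in mtYAP (blue) and YAP (orange), for the 5 steps of the set (marked as listed), for other genes of the pathway and for RNA polymerases II and III (rows, number of genes in brackets), with medians as black bars and a dashed line at 1. The vertical spread of points has no meaning, and the snoRNP median of 1.18 in mtYAP stands against 0.16 for RNA polymerase II.

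A number of these genes carry snoRNA genes within their span. Such snoRNAs are commonly released from introns of the host transcript and guide the modification of ribosomal RNA. In the RefSeq gene table, 7 of the 56 genes (12.5%) have a snoRNA gene inside their span, as do 312 of 16470 measured protein-coding genes (1.89%). They are Dkc1, Nop56, Nop58, Ncl, Wdr43, Tsr1 and Gnl3, with Snord57 and Snord110 in Nop56, Snord11 and Snord70 in Nop58, Snord53 and Snord92 in Wdr43 and Snord19 and Snord69 in Gnl3. The median difference of the 7 was 1.935 in mtYAP and 1.005 in YAP, against 1.065 and 0.52 over the other 49 genes. In mtYAP the 7 ran from 0.67 for Ncl to 2.48 for Dkc1. Genes outside the set with a snoRNA gene in their span, 305 in number, had medians of 0.06 in mtYAP and 0.09 in YAP. Spans were matched by position, and the strands were not compared. The snoRNAs themselves were not measured.

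Some facts of the arrays bear on these values. Myc, read by 1 probe set, stood at 10.71 in mtYAP and 9.66 in YAP, against 7.75 in control, in the same order as most of the set, and its part in the result was not tested. Of 11 fibroblast markers all read at 8.28 or more in mtYAP, YAP and control but for Pdgfra, Pdgfrb, Dcn and Lum in mtYAP and Lum in YAP, with Lum at 3.94 in mtYAP and 6.26 in YAP, against 8.63 in control, and 6 of the 11 lay below −1 in mtYAP. All measured markers of epithelium (6), embryonic stem cells (5), endothelium (4) and immune cells (4) stayed under a level of 6 on each array. The median of 8 housekeeping genes was −0.07 in mtYAP and 0.04 in YAP. In mtYAP they reached from −1.10 for Gusb to 1.22 for Hprt. In RNA from a whole culture, a change in which cells are present and a change of RNA within each cell cannot be told apart. RMA sets the arrays to one distribution, so that the levels are relative and a change of all mRNAs alike would not appear.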

How the data were processed

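Biotin-labelled cRNA of the 3 conditions was put on 1 Affymetrix array each. Background correction and normalization by robust multiarray analysis (RMA) in R were done by the authors, and the deposited log2 levels, rounded to 2 decimals, were used as they stand. RMA and affy are named in the submitters' processing notes, with no version given here. Of 45037 probe sets, 34945 name 1 gene, 932 several and 9160 none by the platform annotation, and the levels of the first kind were averaged per gene. The RefSeq table of GRCm38.p6 held 18032 of the genes by Entrez identifier and lacked 161, and gave names and which genes lie inside others. Polr1f, Polr1g and Polr1h were read as Twistnb, Cd3eap and Znrd1.

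Differences were taken between arrays without a test. Genes were counted past a log2 difference of 1 against control, and past 0.5 for mtYAP minus YAP, beside the share of all genes. The precision is limited by the number of arrays, and a level of 6 was taken as clearly measured. The members and lists were chosen with earlier results of these data known. All members could be named, and of each other list the 2 genes at either end in mtYAP. E-boxes are printed as windows of at most 30 bases. The counting was tested on simulated data. Alternatives joined probe sets to genes in other ways, set a minimum level, rescaled the differences or moved the limit. Python 3.11.15 with numpy 2.4.6, pandas 2.3.3, statsmodels 0.14.6 and matplotlib 3.10.9 was used.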

Additional observations from a re-analysis of the deposited data

Results flagged for a closer look

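Mrto4, a factor of the large subunit, is named only by a probe set that also names its pseudogenes Mrto4-ps1 and Mrto4-ps2, and the signal there was above that of control. It read 9.47 in mtYAP and 8.74 in YAP, against 8.28 in control, differences of 1.19 (2.28-fold) and 0.46 (1.38-fold). Snu13, a core protein of box C/D snoRNPs, is likewise named together with another locus by 2 probe sets, which differed by 0.32 and 0.62 in mtYAP and by 0.24 and 0.45 in YAP. Polr2l, named together with Usp50, differed by 0.06 in mtYAP and −0.13 in YAP.

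Among the genes named above at either end of a list outside the set, mtYAP and YAP lay on opposite sides of control for 4. These are read by probe sets of their own, and the shared probe set of Polr2l did the same. Mdn1 differed by 0.11 in mtYAP and −0.03 in YAP, Polr2b by −0.24 and 0.04, Brf1 by −0.01 and 0.09 and Polr3f by −0.256 and 0.02. These differences are small, rest on single arrays and were not tested. By the mean over probe sets, none of the 56 genes lay on opposite sides of control. By the brightest probe set Nop10 did, at 0.27 in mtYAP and −0.07 in YAP. So did Noc3l, at 0.38 and −0.01, and Ubtf, at −0.01 and 0.14.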

How the results depend on the processing

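Of 171 counts and medians recomputed under the alternatives, 160 kept their direction and moved by less than 1.5 times (counts) or by less than the median SD between probe sets of a gene (medians, 0.24 in mtYAP minus control, 0.21 in YAP minus control and 0.14 in mtYAP minus YAP). The count above 1 in YAP was 13 if a single passing probe set was enough, where 2.4% of all genes passed. At a limit of 0.65 it was 22, where 3.74% of all genes passed. In mtYAP minus YAP, 2 genes lay above 1, where 0.75% of all genes did. With a level of at least 8, the polymerase I median (3 genes) was 0.29 in mtYAP minus control and −0.14 in mtYAP minus YAP, where it was 0.11 over all 7 genes. At that level the small subunit median was 0.72 in YAP minus control and the large subunit median 0.65 in mtYAP minus YAP. After removal of probe sets whose names end in _s_at, _x_at or _a_at, the snoRNP median was 1.485 and that of the genes of several steps 1.29 in mtYAP minus control. In mtYAP minus YAP the genes of several steps then stood at 0.27. With the probe set of the highest mean level, they stood at −0.02 in mtYAP minus YAP, where the mean of probe sets gave 0.035. Over all alternatives the median of the set stayed between 1.07 and 1.175 in mtYAP, between 0.565 and 0.745 in YAP and between 0.44 and 0.58 in mtYAP minus YAP. The upper ends came with a level of at least 8, which lets in genes because they read high in mtYAP. Counts were compared as they stand, also where a minimum level left fewer genes. Those below minus the limit were 0 against control under each alternative, so that they could not move. Of 1068 values of single genes, 50 moved by more than the SD between probe sets, and 36 of the 50 came with the probe set of the highest mean level. No value past its limit changed sign. Smaller values could, as those of Noc3l and Nop10 in YAP and of Ubtf in mtYAP did with that probe set. The causes were not tested. No paired analysis was possible because there is 1 array per condition. A level under 6 limits what can be read of Polr1a, Nat10, Nop16, Wdr12 and Ddx27 as means.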
